A study of Mus musculus with 29 samples.

Results

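Oxidative phosphorylation is carried out by 5 protein complexes of the inner mitochondrial membrane. Complex I (NADH dehydrogenase) and complex II (succinate dehydrogenase) pass electrons to coenzyme Q, complex III (cytochrome bc1) passes them to cytochrome c, complex IV (cytochrome c oxidase) reduces oxygen, and complex V (ATP synthase) uses the resulting proton gradient to make ATP. Most subunits are encoded in the nucleus, and the remaining core subunits by mitochondrial DNA. Several subunits of complex IV exist as paralogues that differ between tissues or respond to low oxygen. Pparg is a nuclear receptor known for its control of lipid metabolism. The nuclear genes of these complexes were chosen by symbol, namely Ndufa, Ndufb, Ndufc, Ndufs and Ndufv (complex I and its Ndufaf assembly factors), Sdha to Sdhd (complex II), Uqcr (complex III), Cox4 to Cox8 (complex IV) and Atp5 (complex V). Pseudogene rows with -ps in the symbol were left out. The rule kept Ndufb4c, Cox6c2, Ndufa11b and Ndufs6b, which GENCODE lists as processed pseudogenes, and Ndufb4c is counted with complex I. Each table lists 35199 genes, of which 97 matched. A minimum of 10 normalized counts in 3 or more libraries of a table left 91. By table, 89 passed in the sorted cells, 91 in the tumors, 90 in the luminal domains with basal tumors and 91 in the table of both domains. Cox6c2, Cox7b2, Cox8b, Cox8c, Ndufa11b and Ndufs6b passed in no table, Cox4i2 and Cox6a2 did not pass in the sorted cells, and Cox6a2 did not pass in the luminal domains with basal tumors.

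Bulk RNA-seq of mouse bladder was used. Gfp-positive basal cells were sorted 4 days after tamoxifen from 4 controls, labelled wild type and given in the study as K5;mTmG, and from 5 K5VP16;Pparg mutants, whose label reads K5VP16;Pparg+/-. In the mutants a Cre driven by the Krt5 promoter switches on, from the Rosa26 locus, a Pparg fused to the VP16 activator that is active without ligand. Tumor cells were laser-captured from mice given 0.05% of the bladder carcinogen BBN in water for 5 months by the labels. In the study tamoxifen was put into the bladder after the first 1 month of BBN, and the 4 months in the sample titles count from it. There were 3 basal tumors of controls, labelled wild type and given in the study as VP16;Pparg fl/fl or K5;mTmG, and from K5VP16;Pparg mice 3 luminal tumors and 3 luminal and 3 basal-like domains of mixed lesions. By the study's methods, mice were adult at tamoxifen. The labels do not say which domains came from 1 lesion or animal, so domains were compared unpaired, and p-values measure the spread between these libraries.

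Luminal markers separated luminal from basal tumors, whereas basal markers overlapped between the domains. The summed normalized counts of 7 luminal urothelial markers, the uroplakins among them, ran from 149067 to 876186 in luminal tumors and from 4305 to 20094 in basal tumors. Smooth muscle markers (6 genes) summed to 150 to 1254 in luminal tumors, where Des was listed at 0, and to 6010 to 51208 in basal tumors. Leukocyte markers (6 genes) summed to 752 to 8686 and to 25138 to 131769 in the same order. Basal-like domains had 34041 to 123325 for the luminal markers against 117902 to 504510 in luminal domains. The 4 basal markers summed to 280457 to 648284 in basal tumors and 9162 to 193189 in luminal tumors. In basal-like domains they summed to 241029 to 447564 and in luminal domains to 169465 to 273132, with CT129 below the luminal domain CT128 and none of the 4 called. In bulk samples fewer cells of a type and less RNA per cell cannot be told apart.

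Promoter sequence is shown for 4 named members to place the genes beside the transcription factors known for mitochondrial genes. The windows run from 250 bases before to 50 after the start in RefSeq on GRCm38.p6, and 74 of the 91 members had 79 windows. Both strands were searched. The letters of an NRF1 site, GCGCA and GCGC parted by any 1 base, were in 25.3% of member windows and in 4.6% of all 32851 windows of this length. The letters of an ETS site as bound by GABP, CCGGAAG, were in 24.1% and 8.86%, and those of a YY1 site, AAGATGGC, in 13.9% and 2.75%. An estrogen-related receptor site, TCAAGGTCA, was in 2.53% and 0.423%, and the core letters read by HIF, ACGTG, in 22.8% and 19.6%. A direct repeat of the kind read by Pparg with its partner, 2 copies of AGGTCA with 1 base between, was in 0 of 79 member windows and in 0.0396% of all windows. These matches describe letters, not binding. The stretches printed here are upstream of the gene in GENCODE, and capitals mark the NRF1 letters in Cox6a1, Sdha and Ndufaf4 and the ACGTG letters, on either strand, in Sdha and Ndufaf3.
Cox6a1, chr5:115348982-115349208, minus strand: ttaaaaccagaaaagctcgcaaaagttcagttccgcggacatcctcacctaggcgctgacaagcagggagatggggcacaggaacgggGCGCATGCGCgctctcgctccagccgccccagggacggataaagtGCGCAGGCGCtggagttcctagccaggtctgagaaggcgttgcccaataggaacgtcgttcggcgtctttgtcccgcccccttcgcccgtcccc
Sdha, chr13:74350281-74350490, minus strand: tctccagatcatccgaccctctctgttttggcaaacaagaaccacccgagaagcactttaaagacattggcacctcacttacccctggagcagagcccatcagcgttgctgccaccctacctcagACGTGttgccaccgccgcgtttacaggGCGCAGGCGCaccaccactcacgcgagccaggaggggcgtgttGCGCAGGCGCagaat
Ndufaf4, chr4:24897833-24898082, plus strand: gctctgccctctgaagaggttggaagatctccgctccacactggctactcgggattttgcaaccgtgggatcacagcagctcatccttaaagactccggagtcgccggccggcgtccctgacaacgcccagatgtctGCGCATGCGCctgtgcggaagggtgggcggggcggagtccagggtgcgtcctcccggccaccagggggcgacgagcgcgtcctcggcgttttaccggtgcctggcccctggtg
Ndufaf3, chr9:108567437-108567686, minus strand: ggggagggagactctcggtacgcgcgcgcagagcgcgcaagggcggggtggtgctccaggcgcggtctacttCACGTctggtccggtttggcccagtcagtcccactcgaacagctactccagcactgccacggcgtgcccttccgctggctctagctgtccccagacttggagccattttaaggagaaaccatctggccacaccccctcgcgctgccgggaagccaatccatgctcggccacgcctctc

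The first comparison asked how the members stood in basal cells 4 days after VP16;Pparg was switched on. Most members averaged higher in mutants, but none passed the test. Of 89 members, 74 (background 50.6% of all genes) had a positive and 15 a negative log2 fold change (on log2 of normalized count + 1), with a median of 0.20 and an interquartile range of 0.06 to 0.32, where the median of the 16864 genes tested was 0.01. None passed limma's test (adjusted p under 0.05), against 2.78% of all genes (468, and 129 to 600 with 1 library left out), and 13 members had an unadjusted p under 0.05, each of them higher in mutants, where 20.7% of all genes passed that mark. The median standard error of a member was 0.18. Groups did not overlap for 5 members, each higher in mutants, with Atp5o, Cox6a1, Ndufa4l2 and Ndufv3 among them, which is 5.62% of members against 4.67% of all genes in that direction. Ndufa4l2, in this count and among the 13, passed the minimum through mutants alone, and its lowest mutant had 6.82 normalized counts against 6.78 in its highest control. None was lower without overlap, where 4.43% of all genes were.

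By complex, the median log2 fold change was 0.40 over 13 genes of complex IV, 0.30 over 17 of complex V, 0.18 over 39 counted with complex I, 0.15 over 4 of complex II and 0.12 over 8 of complex III. The 8 Ndufaf assembly factors had a median of -0.03, with 4 on either side of 0. The level of the members differed among the mutants. In each library the median over members of the difference from the table's mean was 0.36 in CT070 and 0.43 in CT071, but -0.04, -0.07 and -0.26 in CT074, CT076 and CT078. The controls were at 0.02, 0.02, -0.34 and -0.06. The members took 1.02% to 1.24% of normalized counts in controls and 1.11% to 1.45% in mutants, so both measures overlapped between genotypes. CT070 and CT071 were the highest of the 9 libraries by each. They were also the highest for the summed luminal urothelial markers, at 493810 and 404449, and CT066, the lowest by member level, was the lowest for these as well, at 201277. The luminal markers were positive in 7 of 7 (median log2 fold change 0.61), and the 4 basal markers had a median of -0.52. Krt20 was called higher and Col17a1 lower, and these calls were kept in 1 and 4, respectively, of the 9 fits without 1 library. Their part in the member values was not tested. The median fold change of the members was 0.11 without CT066, the lowest control, 0.11 without CT071 and 0.13 without CT070. With array weights it was 0.09, with 67 members positive and 22 negative.

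**Figure D1:**
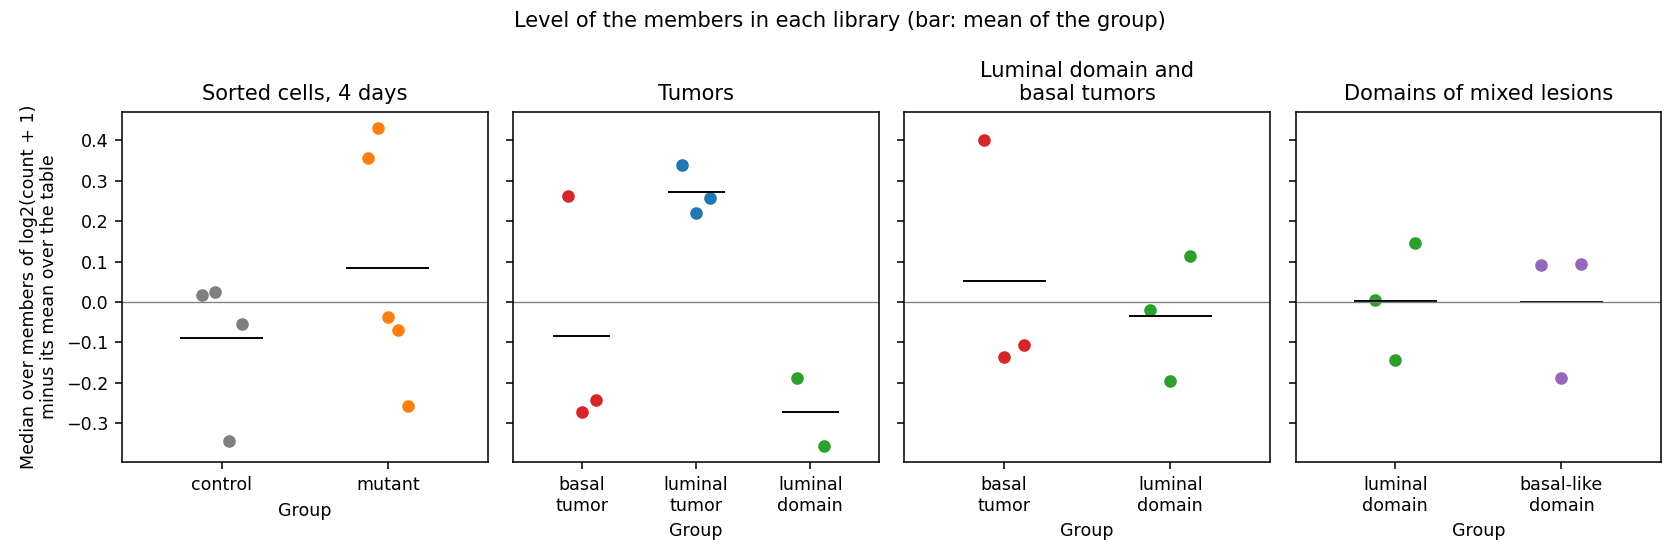
Median over members of log2(normalized count + 1) minus its mean over the table (y axis, log2 units) for each library, by group (x axis) and table; points are libraries and bars are group means. At 4 days the mutants CT070 (0.36) and CT071 (0.43) sit above every other library, and luminal tumors (0.22 to 0.34) overlap the basal tumor CT111 (0.26) and not the luminal domains (-0.19 and -0.36).

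Ndufa4l2 (chromosome 10, 127514967 to 127517154, GRCm38) had the largest difference at 4 days. It encodes a paralogue of Ndufa4 that is known to be induced by HIF. The controls held 3.73, 1.14, 6.78 and 1.88 normalized counts and the mutants 17.6, 30.5, 201, 6.82 and 165. CT074 and CT078 were far above the rest, and CT076 lay beside the highest control. It passed the count minimum through mutants alone, so the minimum favoured a positive difference, and its log2 fold change of 3.48 is a description with no test.

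The paralogue Ndufa4, long counted with complex I and now held to be a part of complex IV, was at 4269, 4778, 2645 and 4397 in controls and 7016, 6821, 5192, 5136 and 3212 in mutants. These groups overlapped, with a log2 fold change of 0.43 ± 0.25 (SE) and a limma adjusted p of 0.362. Cox6a1 (chromosome 5), the broadly expressed form of subunit VIa whose promoter is printed above, was at 5843, 5699.5, 5047 and 6191 in controls and 10469, 9659.8, 7256, 6665 and 6691 in mutants. Every mutant lay above every control, and the log2 fold change was 0.49 ± 0.15 (SE), with a limma adjusted p of 0.106. Ndufv3, an accessory subunit of the NADH-oxidizing module of complex I, was at 2564, 2533, 2210.4 and 2634 in controls and 4827, 4476, 2864, 2663 and 2831 in mutants. Its groups were set apart narrowly, and CT070 and CT071 were again highest (log2 fold change 0.46 ± 0.19 (SE), limma adjusted p = 0.203).

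The other complex IV paralogues were unequal in level and precision. Cox7a1, the form best known from heart and skeletal muscle, was at 6.72, 23.2, 8.64 and 33.4 in controls and 63.3, 53.1, 71.8, 30.7 and 17.6 in mutants, with a log2 fold change of 1.45 ± 0.57 (SE) and overlapping groups. Cox7a2, the broadly expressed form, had 0.39 ± 0.24 (SE). Cox6b2, known from testis, had 0.84 ± 0.35 (SE) and Cox6b1 0.40 ± 0.22 (SE). Cox8a had 0.29 ± 0.16 (SE), and Cox8b did not reach 1 normalized count in any library. Cox4i1, the main form of subunit IV, had -0.01 ± 0.12 (SE), and the sign of its value changed in 4 of 9 fits without 1 library. Adjusted p ran from 0.185 for Cox7a1 to 0.986 for Cox4i1 among these 6 tested genes.

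Of the core subunits of the complexes, Ndufs1 and Ndufv1 (electron transfer in complex I) had log2 fold changes of 0.22 ± 0.09 (SE) and 0.07 ± 0.10 (SE). Sdha and Sdhb, the flavin and iron-sulfur subunits of succinate dehydrogenase, had -0.10 ± 0.11 (SE) and 0.20 ± 0.11 (SE). Uqcrfs1 (the Rieske iron-sulfur protein) and Uqcrc1 had 0.21 ± 0.13 (SE) and 0.09 ± 0.11 (SE). Atp5b and Atp5c1, the beta and gamma subunits of the ATP synthase, had 0.30 ± 0.14 (SE) and 0.16 ± 0.14 (SE). Of these 8 genes none was called by limma, and only Sdha averaged lower in mutants. Under quantile normalization Ndufv1 was below 0 too, at -0.0033.

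Other mitochondrial genes were examined by list at 4 days. Of 13 mitochondrially encoded subunits none was called, with a median log2 fold change of 0.15. Among genes of the TCA cycle the mitochondrial malate dehydrogenase Mdh2 rose in mutants (log2 fold change 0.48 ± 0.11 (SE), limma adjusted p = 0.0496). Of 14 hypoxia-induced genes 6 were positive, with a median log2 fold change of -0.10. Among them Egln3 and Hk2 rose in mutants (0.91 and 0.93) and Pdk1, which restrains pyruvate entry into the cycle, fell (-0.48). The deiodinase Dio2, in the list of uncoupling and thermogenic genes, fell as well (-1.56). These calls lay close to the threshold. Egln3 passed in 9 of 9 fits that each left out 1 library, Dio2 in 5, Pdk1 in 4, Hk2 in 1 and Mdh2 in 0, with the sign unchanged in each of these fits. Without any 1 of CT065, CT066, CT067 and CT074, each of Mdh2, Hk2, Pdk1 and Dio2 lost the call. Of 39 assembly factors outside the symbol rule, 18 regulators of mitochondrial biogenesis, 13 genes of coenzyme Q synthesis and 18 of mitochondrial import, none was called.

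The Y-linked genes summed to 9030 to 9177 in 3 controls, to 404 in the control CT063 and to 338 to 395 in the mutants. Sex signal and genotype cannot be told apart but for CT063. Fibroblast markers (6 genes) summed to 11651 to 84707 in controls and 30652 to 217371 in mutants, with 6 of 6 positive, a median log2 fold change of 2.02, 1 without overlap and 1 (Lum) called, a call kept in 3 of the 9 fits without 1 library. Smooth muscle markers summed to 174 to 1042 in controls and 410 to 2719 in mutants, with 6 of 6 positive, 3 of them without overlap, and a median log2 fold change of 1.75. Endothelial and pericyte markers (6 genes, 5 tested) summed to 695 to 1518 and 1478 to 3056. The part of these cells in the 4-day results, those of Ndufa4l2 and Cox7a1 included, was not tested. Cdh5 was listed at 0 in the controls, and the skeletal muscle myosins Myh2 and Myh4 in all 9 libraries.

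**Figure D2:**
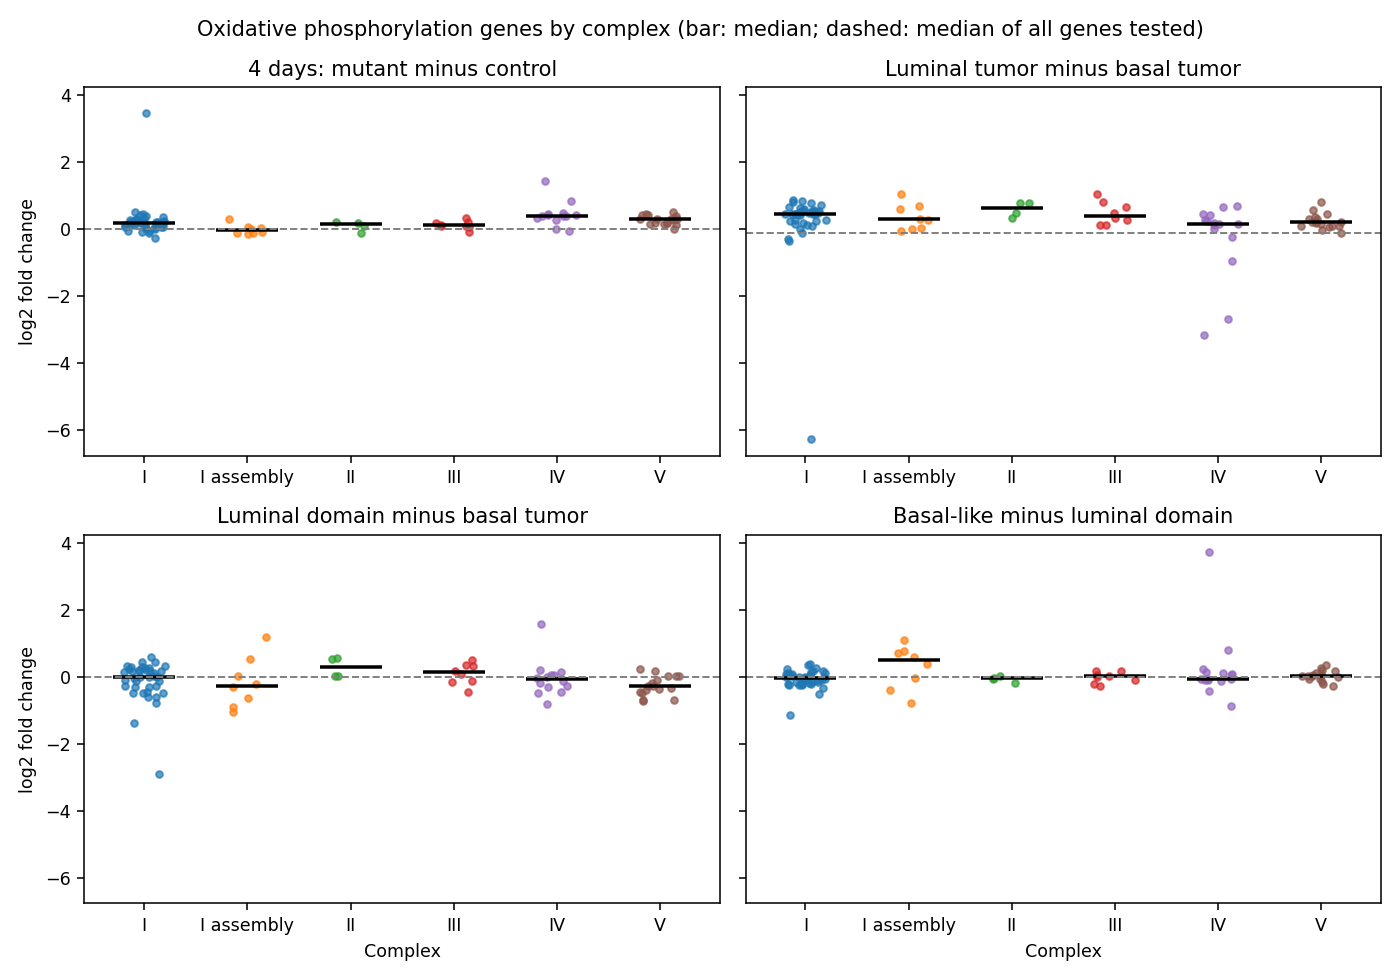
Log2 fold change (y axis) of each member (points) in the 4 comparisons, by complex (x axis, with complex I assembly factors apart); bars are medians and the dashed line is the median of all genes tested. Most points lie within 1 log2 unit of 0, and Ndufa4l2 is the lone point at 3.48 at 4 days and at -6.25 in luminal tumors.

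The next comparison set 3 luminal tumors against 3 basal tumors, in a fit over 8 libraries that also held 2 luminal domains. The median member of each of the 5 complexes was above 0, and Ndufa4l2, Cox4i2 and Cox6b2 lay far below it, at -6.25, -3.14 and -2.67. Without CT140 and without CT126 Cox4i2 was at -4.77 and -2.33, and Cox6b2 at -4.22 and -0.95. Of 91 members 80 had a positive log2 fold change, with a median of 0.33 (interquartile range 0.14 to 0.55), where the median of 15357 genes was -0.11 and 46% of genes were positive. None was called by limma, against 2.2% of all genes. That share is 338 genes, and the number was 3 without CT126 or CT132, 25 without CT111, 116 to 201 without CT113, CT115, CT128 or CT143, and 896 without CT140. At an unadjusted p under 0.05, 11 were higher and 1 lower, and 18.4% of all genes passed that mark. Groups did not overlap for 17 members higher in luminal tumors, where 9.98% of all genes did so, and for 1 that was lower, where 11.6% did. The median standard error of a member was 0.33.

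The medians by complex were 0.63 for complex II (4 of 4 positive), 0.47 for complex I (35 of 39), 0.41 for complex III (8 of 8), 0.30 for the assembly factors (7 of 8), 0.21 for complex V (15 of 17) and 0.16 for complex IV (11 of 15). The luminal tumors had member levels of 0.34, 0.22 and 0.26 above the mean of the table. The basal tumors were split, with CT111 at 0.26 and CT113 and CT115 at -0.27 and -0.24. Members took 5.12% of normalized counts in CT111, more than the 3.94% to 4.31% of luminal tumors, and 3.60% and 3.44% in the other basal tumors. CT111 also held more leukocyte marker counts than these, 131769 against 25581 and 25138. Its mitochondrially encoded share was larger too, 3.64% against 2.52% and 2.40%. The part of either in its member level was not tested. Under quantile normalization the median of all genes was 0.02, and those of complex V and complex IV were 0.02 (10 of 17 positive) and 0.05 (10 of 15). The median of the members was 0.19 there, with 66 positive and 25 negative. Without CT111 the median fold change of the members was 0.55. With the 2 luminal domains added to the luminal side, as the table was laid out by the authors, it was 0.15. In that fit 57 members were positive and 34 negative.

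Ndufaf3 (chromosome 9, 108565537 to 108567434), a complex I assembly factor, was at 1055, 2053 and 1371 in basal and 3207, 3288 and 2478 in luminal tumors. Each luminal tumor lay above each basal tumor, and the log2 fold change was 1.05 ± 0.35 (SE), with a limma adjusted p of 0.165. Uqcr10 (chromosome 11, 4701973 to 4704342), a small subunit of complex III, was at 40801, 33169 and 31207 and 87549.5, 81958 and 51244. CT126 and CT132 held about the same high level, and CT140 lay between them and the basal tumors (log2 fold change 1.04 ± 0.32 (SE), limma adjusted p = 0.131). Without CT140 it was called, at 1.28 and an adjusted p of 0.0471.

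Ndufb3, an accessory subunit of the complex I membrane arm, was at 9856, 7980.1 and 6388 in basal and 14628, 18141 and 10153 in luminal tumors, without overlap (log2 fold change 0.81 ± 0.34 (SE), limma adjusted p = 0.249). Sdhb was at 13578, 9695 and 11978 and 18789, 16984 and 25094, also without overlap, with 0.78 ± 0.28 (SE) and an adjusted p of 0.191. Sdhc, a membrane anchor of the same complex, was at 5201, 4120.3 and 3797 and 7923, 5789 and 9327, with 0.80 ± 0.30 (SE) and 0.203. All 4 subunits of succinate dehydrogenase had a positive value, and those of Sdhb and Sdhc were set apart from the basal tumors.

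Ndufa4l2 was at 2946, 126 and 8213 normalized counts in basal tumors and 11.6, 4.25 and 103 in luminal tumors. The basal tumors differed widely among themselves, and CT113 was close to the luminal tumor CT140. The log2 fold change was -6.25 ± 1.63 (SE), with a limma adjusted p of 0.0867. It was called without CT113 (-8.01, adjusted p = 0.0360) and without CT140 (-7.48, adjusted p = 0.0399), the libraries whose values lay closest to the other group. Ndufa4 was at 146515, 167899 and 149483 in basal and 96963, 87903 and 212033 in luminal tumors, where CT140 was the highest of all 8 libraries, and its log2 fold change was -0.34 ± 0.40 (SE). Smooth muscle, fibroblast and leukocyte markers were also lower in luminal tumors, as given above for muscle and leukocytes, and 44454 to 66575 against 212 to 17130 for fibroblasts. Of 6 endothelial and pericyte markers, with a median of -3.38, 4 were lower without overlap and Rgs5 was higher without overlap, so that their sum was 4020 to 10610 in luminal and 3389 to 5573 in basal tumors. The pericyte genes Pdgfrb (-7.91 ± 1.39 (SE), limma adjusted p = 0.0324) and Cspg4 (-7.77 ± 1.53 (SE), limma adjusted p = 0.0403) were called, in 1 and 2 of the 8 fits without 1 library. The part of these cell types in the Ndufa4l2 values was not tested.

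Among the complex IV paralogues, Cox4i2, the form of subunit IV known from lung and from low oxygen, was at 14.5, 72.6 and 16.7 in basal tumors and 0, 0 and 28.3 in luminal tumors. It was listed at 0 in CT126 and CT132, groups overlapped, and the limma adjusted p was 0.355. Cox4i1 was at 62361, 43291 and 37368 and 51664, 51923 and 50973, with a log2 fold change of 0.15 ± 0.30 (SE). Cox6b2 was at 299, 164 and 77.8 and 1.26, 30.7 and 208, and Cox6a2 (a muscle form) at 55, 258 and 0 and 105, 0 and 17.7. Both spanned more in luminal tumors than the distance between the groups. Cox6a1 had 0.43 ± 0.36 (SE), Cox6b1 0.45 ± 0.33 (SE), Cox7a1 0.00 ± 1.22 (SE), Cox7a2 0.26 ± 0.34 (SE) and Cox8a 0.66 ± 0.31 (SE), with adjusted p from 0.299 for Cox8a to 0.999 for Cox7a1. Cox8b was listed at 0 in the 8 libraries.

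**Figure D3:**
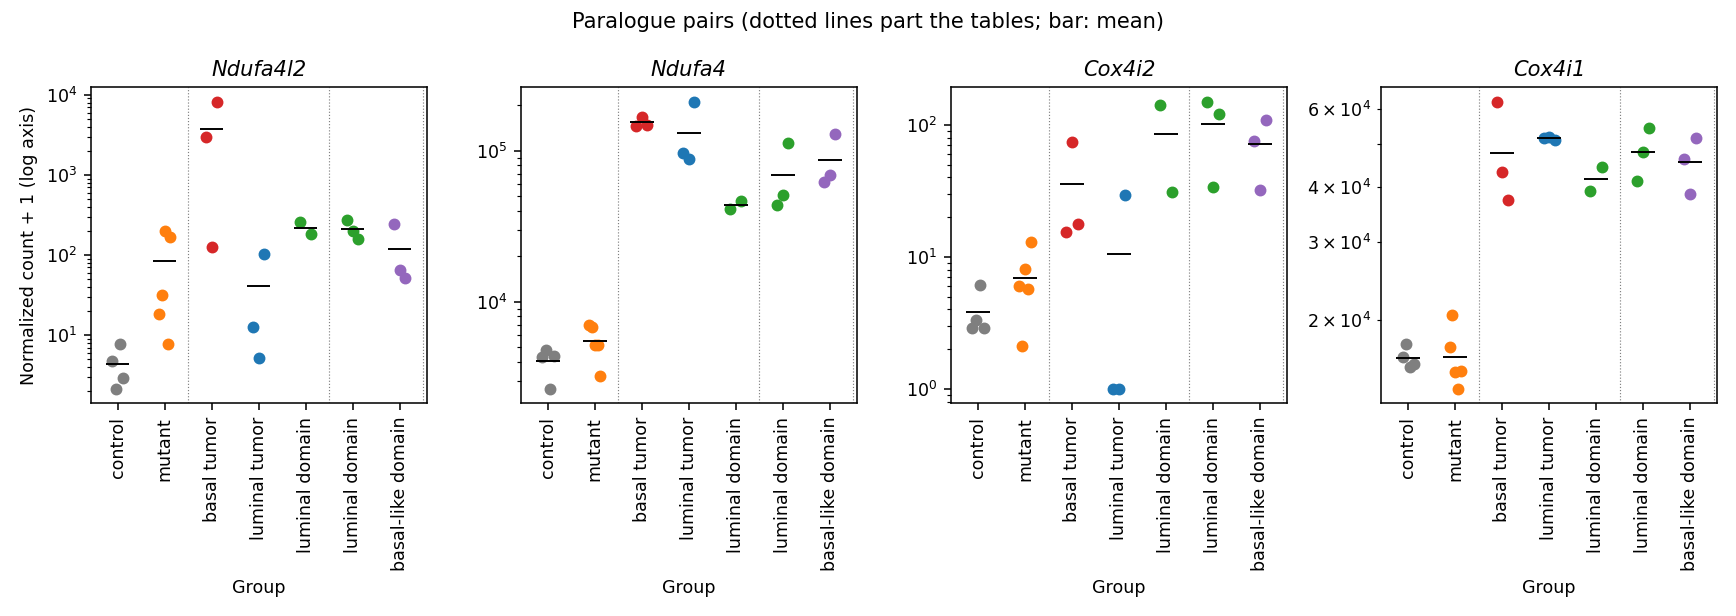
Normalized count + 1 (log y axis) of 2 paralogue pairs in each library (points; bars are means), by group (x axis) in the sorted cells, the 8-library tumor table and the domain table, which are parted by dotted lines, so that luminal domains appear in both of the latter. Ndufa4l2 was under 7 normalized counts in the controls and above 100 in all basal tumors, and Cox4i2 was listed at 0 in CT126 and CT132.

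The core subunits had values on both sides of 0. Ndufs1 had a log2 fold change of -0.11 ± 0.40 (SE), Ndufv1 0.00 ± 0.44 (SE), Sdha 0.48 ± 0.39 (SE), Uqcrfs1 0.29 ± 0.38 (SE), Uqcrc1 0.14 ± 0.52 (SE), Atp5b -0.02 ± 0.36 (SE) and Atp5c1 0.58 ± 0.30 (SE). Atp5c1 alone of these 7 had no overlap, at 20477, 16260.5 and 18953 in basal and 23648, 23001 and 38857 in luminal tumors. The signs of Ndufs1, Ndufv1, Uqcrfs1, Uqcrc1 and Atp5b changed with 1 library left out. Sdha ran from 0.09 without CT115 to 0.84 without CT113, and Atp5c1 from 0.34 without CT140 to 0.71 without CT132. CT140 was the highest of the 8 libraries for Ndufv1, Uqcrfs1, Uqcrc1, Atp5b and Atp5c1.

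Of the other lists, the 13 mitochondrially encoded subunits each averaged higher in luminal tumors, with a median of 0.61 and none called. Suclg2, a succinyl-CoA ligase subunit, was the 1 called gene of 20 in the TCA cycle (log2 fold change 1.68 ± 0.35 (SE), limma adjusted p = 0.0452), and it passed in 1 of 8 fits that left out 1 library, the one without CT140, with values of 1.41 to 1.96. None was called of 40 assembly factors outside the rule (median 0.53), 17 biogenesis regulators (0.16), 13 coenzyme Q genes (0.79), 14 hypoxia-induced genes (-0.69) or 18 import genes (0.13). The 78 genes of the mitochondrial ribosome, a list added with the data seen, had a median of 0.31. Members are short genes, with a median transcript length of 743 bases over 88 of them, and other genes up to 1000 bases had a median of 0.05 in this comparison.

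Luminal domains of mixed lesions were compared with the same 3 basal tumors in a table of their own. Of 90 tested, 44 were positive and 46 negative (50.4% of all genes were positive), with a median of -0.02 (interquartile range -0.35 to 0.19) against 0.01 over 14921 genes. The 2 domains of the 8-library table gave 31 positive and 60 negative, upper-quartile scaling 29 and 61, and the fits without 1 library from 32 and 58 (without CT115) to 55 and 35 (without CT111). None was called by limma, against 2.53% of all genes. That share is 377 genes, and the number was 0 without CT128 or CT143, 17 without CT148, 47 without CT111, 234 without CT115 and 518 without CT113. At an unadjusted p under 0.05, 1 member was higher and 3 were lower, where 20.6% of all genes passed. Groups did not overlap for 8 members that were higher in luminal domains, where 14% of all genes did so, and for 7 that were lower, where 12.8% did. The median by complex ran from 0.28 for complex II to -0.28 for complex V (12 of 17 negative), and those of complex I, complex III and complex IV, which lay between, changed sign with the scaling. Member levels were 0.40, -0.14 and -0.11 in basal tumors and -0.02, -0.20 and 0.11 in the domains, and the median fold change was 0.14 without CT111, -0.16 without CT115, -0.15 without CT113 and -0.11 without CT148.

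Complex I assembly factors were among the members whose groups did not overlap. Ndufaf3 was at 1115, 2127 and 1432 in basal tumors and 3343, 3303 and 3638 in luminal domains. The domains lay close together and above every basal tumor (log2 fold change 1.19 ± 0.33 (SE), limma adjusted p = 0.103). Ndufaf2 (chromosome 13) was at 2412, 2265 and 1919.6 and 963, 1200.0 and 1031, so that it was lower in each domain, with -1.04 ± 0.31 (SE) and an adjusted p of 0.123. Ndufaf4 (chromosome 4) was at 3754, 2673 and 2287 and 1814, 1339.6 and 1472, lower in each domain too, with -0.89 ± 0.32 (SE) and 0.177. The values of these 3 assembly factors thus lay on both sides of 0, and none was called.

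Ndufa4 (chromosome 6, 11900292 to 11907497) was at 154542, 173641 and 155898 in basal tumors and 43939.6, 50209 and 111258 in luminal domains. Basal tumors were alike, and CT148 lay between them and the remaining domains. The log2 fold change was -1.36 ± 0.42 (SE), with a limma adjusted p of 0.128. Ndufa4l2 was at 3099, 130.0 and 8543 and 271, 196 and 154, where CT113 lay below the domains (-2.90 ± 1.37 (SE), adjusted p = 0.28). Without CT113 it was called, at -4.67 and an adjusted p of 0.0165. Smooth muscle markers (median -4.12, 3 called lower, of which Acta2 and Tagln passed in 1 of 6 fits without 1 library and Cnn1 in 0 of 3) and fibroblast markers (median -2.81, none called) were negative in 6 of 6 each in this comparison, and their part in the Ndufa4l2 values was not tested.

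Succinate dehydrogenase was again set apart for some subunits. Sdhc was at 5550.2, 4311 and 4007 in basal tumors and 5679.6, 6984 and 8017 in luminal domains (log2 fold change 0.58 ± 0.27 (SE), limma adjusted p = 0.272). Sdhb was at 14268, 9989 and 12445 and 16173, 18858 and 18035 (0.54 ± 0.25 (SE), adjusted p = 0.265). Both lay higher in each domain, and Sdha was at 0.01 ± 0.39 (SE), with a sign that changed with the scaling. Cox4i2 was at 15.4, 75.5 and 17.5 and 149.9, 32.7 and 119.8, with overlap. Of the other core subunits Ndufs1 had -0.59 ± 0.41 (SE), Ndufv1 -0.10 ± 0.33 (SE), Uqcrfs1 0.10 ± 0.28 (SE), Uqcrc1 0.49 ± 0.33 (SE), Atp5b -0.39 ± 0.31 (SE) and Atp5c1 0.18 ± 0.25 (SE), each with overlap. No gene of the other mitochondrial lists was called.

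Luminal tumors and luminal domains share the basal tumors as their control, so the difference between them was tested directly in the 8-library fit, with 3 tumors and 2 domains. The members averaged higher in luminal tumors, with 83 of 91 positive (45.2% of all genes were) and a median of 0.55 (0.32 under quantile normalization and 0.71 without CT128), where the median of all 15357 genes was -0.09. Limma called 0 genes, and 17 members were higher and 1 lower at an unadjusted p under 0.05, where 4.71% of all genes passed. Groups did not overlap for 54 members higher in tumors, where 9.25% of all genes did so, and for 2 lower, where 10.9% did. The member levels were 0.22 to 0.34 in the tumors and -0.19 and -0.36 in the domains. The 18 import genes were all positive (median 0.56), as were the 13 mitochondrially encoded subunits (0.80). The mitochondrial ribosome genes had a median of 0.57, and genes other than members up to 1000 bases long had 0.35. Markers of other cell types averaged lower in tumors than in domains, with medians of -3.05 for fibroblasts (6 of 6 negative), -3.59 for endothelium and pericytes (6 of 6), -2.24 for smooth muscle (5 of 6) and -1.76 for leukocytes (5 of 5), none called. What these cells or short transcripts contribute was not tested.

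In that comparison Ndufa4 was at 96963, 87903 and 212033 in tumors and 41054 and 46309 in domains, with a log2 fold change of 1.48 ± 0.45 (SE). Uqcr10 was at 87549.5, 81958 and 51244 and 33018 and 35034, with 1.07 ± 0.36 (SE). Both lay higher in every tumor. Ndufa4l2 was at 254 and 182 in the domains against at most 103 in the tumors (-3.50 ± 1.82 (SE)), and Cox4i2 at 139 and 30 against at most 28.3 (-4.42 ± 1.86 (SE)). The limma adjusted p was 0.982 for all 4, and the domains were 2 libraries.

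The last comparison was made within the mixed lesions, 3 basal-like domains against 3 luminal domains. Of 91 members, 46 had positive and 45 negative values (50.7% of all genes were positive), with a median of 0.01 and an interquartile range of -0.15 to 0.13, beside 0.01 over 14874 genes. Quantile normalization gave 62 positive and 29 negative (median 0.09, against -0.0016 over all genes), and array weights 37 and 54. Limma called 0 members and 0 genes in all, and 3 members were higher and 1 lower at an unadjusted p under 0.05, where 5.09% of all genes passed that mark. Groups did not overlap for 4 members higher in basal-like domains, where 5.62% of all genes did so, and for 3 lower, where 5.14% did. Cox6a2, in both of these counts of higher members, passed the minimum through basal-like domains alone, so its lack of overlap was set by the minimum. Member levels were 0.00, -0.14 and 0.15 in the luminal domains and 0.09, -0.19 and 0.09 in the basal-like domains. The median standard error of a member was 0.25.

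Without overlap 4.4% of members were higher and 3.3% lower in basal-like domains, each below the share of all genes given above. Of these 7 members 4 were assembly factors of complex I. Ndufaf6 was at 790.1, 569 and 529 in luminal and 1171, 903 and 2171 in basal-like domains (log2 fold change 1.09 ± 0.43 (SE)). Ndufaf2 was at 953, 1203 and 1033 and 2284, 1275 and 2004 (0.77 ± 0.32 (SE)), and Ndufaf4 at 1899, 1420.1 and 1559 and 2487, 3074 and 1928 (0.60 ± 0.28 (SE)). These 3 were higher in each basal-like domain, by margins that were narrow for Ndufaf4 and Ndufaf2. Ndufaf3 lay the other way, at 3627, 3629.6 and 3994 in luminal and 2977, 1985 and 1806 in basal-like domains (-0.77 ± 0.26 (SE)). The limma adjusted p was 0.935 for each of the 4, and the luminal domains are the same libraries that were set against basal tumors.

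**Figure D4:**
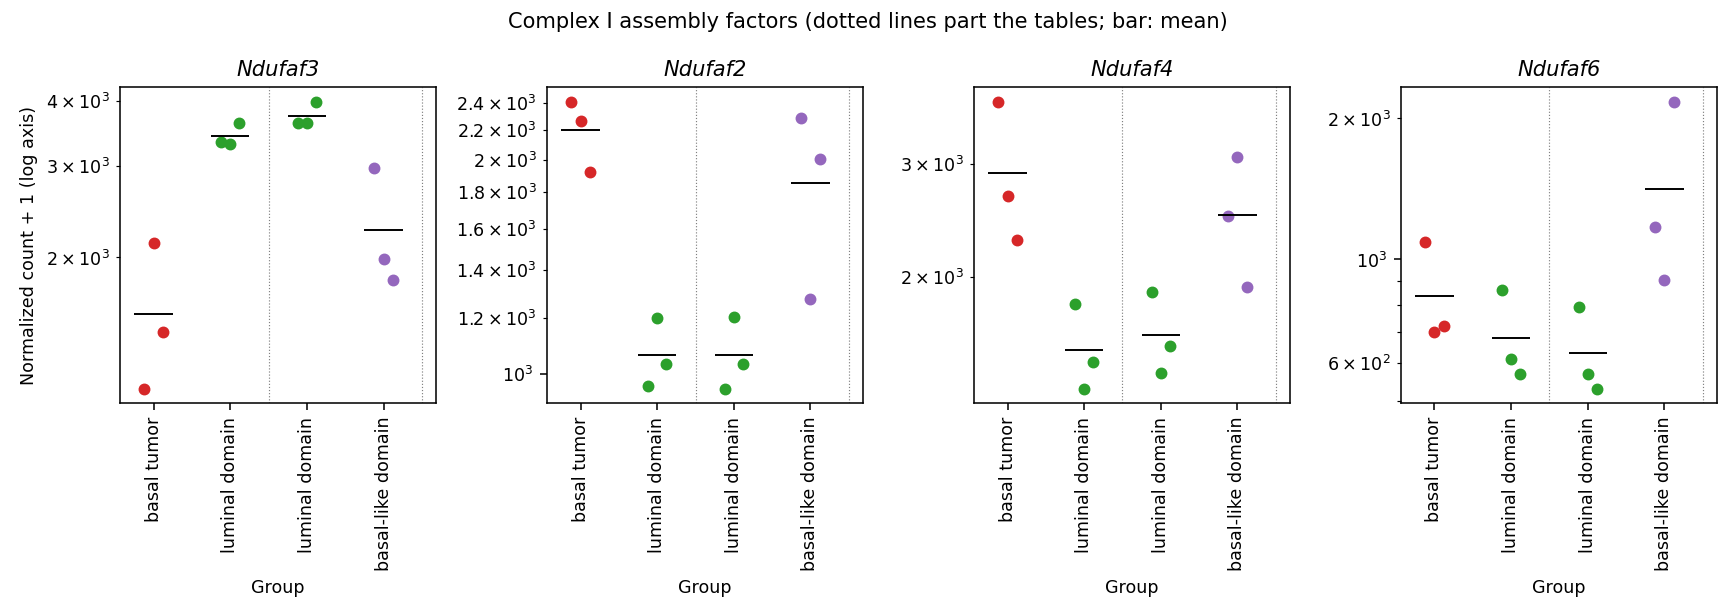
Normalized count + 1 (log y axis) of 4 complex I assembly factors in each library (points; bars are means), by group (x axis); the dotted line parts the table of basal tumors and luminal domains from the table of both domains, so luminal domains appear in both. Ndufaf3 was highest in luminal domains in both tables, and Ndufaf2 and Ndufaf4 were lowest there.

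Ndufa11, a membrane-arm subunit, was at 17559.7, 17100.2 and 18207 in luminal and 13678, 15999.9 and 15595 in basal-like domains (-0.23 ± 0.19 (SE)). Atp5d, the delta subunit of the ATP synthase, was at 25115, 27108 and 27818 and 22278, 22533 and 23678 (-0.22 ± 0.19 (SE)). Both differences were about as large as their standard errors. Cox6a2 was at 0, 9.21 and 1.1 in luminal and 87.5, 17.1 and 30.6 in basal-like domains, and it passed the minimum through the latter alone. Its log2 fold change of 3.74 ± 1.40 (SE) therefore had to be positive and is given with no test. Fibroblast markers summed to 13859 to 104068 in basal-like and 5225 to 32313 in luminal domains, and their part in these values was not tested.

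The remaining named members overlapped between the domains taken as unpaired groups, and differences within a lesion were not tested. Ndufa4l2 was at 273, 200.5 and 158 in luminal and 243, 64.8 and 50.1 in basal-like domains (-1.14 ± 0.85 (SE)), and Ndufa4 at 43731, 50613 and 112051 and 62194, 69628 and 128622 (0.39 ± 0.44 (SE)). Ndufa4l2 ran from -1.83 without CT129 to -0.70 without CT149, and Ndufa4 from 0.07 without CT149 to 0.81 without CT148. Cox4i2 had -0.41 ± 1.00 (SE), Cox6b2 0.79 ± 0.79 (SE) and Cox7a1 -0.85 ± 1.05 (SE). The broadly expressed forms Cox4i1, Cox6a1, Cox6b1, Cox7a2 and Cox8a lay between -0.08 and 0.07, and each changed sign with 1 library left out. The core subunits Ndufs1, Ndufv1, Sdha, Sdhb, Uqcrfs1, Uqcrc1, Atp5b and Atp5c1 ran from -0.19 for Sdha to 0.22 for Ndufs1. The mitochondrially encoded subunits had a median of -0.18, with 2 of 13 positive.

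Some symbols share sequence with other rows of the tables. Of 13 rows of these families with -ps in the symbol 3 reached 100 normalized counts, namely Ndufa12-ps (up to 7482), Ndufs5-ps (up to 3686) and Cox7c-ps1 (up to 116). The processed pseudogene Ndufb4c, kept among the members, averaged 9595 in luminal tumors, where Ndufb4 averaged 10575. Transcript estimates may be split between Ndufa12, Ndufs5 or Ndufb4 and these rows, and their values are uncertain.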

How the data were processed

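RNA-seq libraries were made with SMART-Seq v4 and Nextera XT. Per the labels and methods, the authors ran bcl2fastq 2.20, quantified transcripts with kallisto 0.44.0 and normalized gene-level estimates with DESeq2 1.18, and the submitters' notes also name sleuth. The signal values that were deposited hold the resulting normalized counts, made table by table. They are not whole reads, so read depth is unknown and no count model was used. Normalized counts summed to 36520193 to 41435665 per library in the sorted cells. The deposited log2 values and p-values (the authors' fold changes, p and adjusted p) were not used. The submitters' notes list builds GRCm38 and GRCh38. Gene positions are from GENCODE M21 on GRCm38. Of 29 samples 21 libraries were used. The table of wild-type mice with and without BBN, with 8 value columns, was not used because its columns could not be tied to groups.

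Genes that reached 10 normalized counts in 3 or more libraries of a table were fitted within it with limma 3.58.1 in R 4.3.3 (lmFit, eBayes with trend). The fit used log2 after a pseudocount of 1 was added, which makes changes of low genes look smaller. Benjamini-Hochberg adjusted p under 0.05 over all genes was the threshold. Named members are those with the 3 largest rises and falls per comparison among members whose groups do not overlap and whose higher group averages at least 50, plus 6 paralogue pairs and 8 core subunits. Sdhc in luminal tumors was named outside this rule. Between luminal tumors and luminal domains no such ranking was made, and Cox4i2, Ndufa4, Ndufa4l2 and Uqcr10 were picked. Members and lists were chosen with earlier results of these data known. Single genes that passed a mark are in places not reported here. The fit was tested on simulated data. Promoter windows came from RefSeq, and figures were drawn with Python 3.11.15 and matplotlib 3.10.9. Alternatives were other pseudocounts and filters, eBayes settings, array weights, scalings, tables, structural subunits alone and each library left out.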

Additional observations from a re-analysis of the deposited data

Results flagged for a closer look

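Ndufa4l2 lay in opposite directions in the sorted cells and in the tumors. At 4 days each K5VP16;Pparg library was above each control, with a log2 fold change of 3.48, and each luminal tumor of K5VP16;Pparg mice was below each basal tumor of controls, with -6.25. The lowest mutant and the highest control were nearly equal at 4 days, at 6.82 and 6.78 normalized counts. It passed the count minimum through mutants alone at 4 days, so the minimum favoured that direction. The 2 tables were normalized separately, and the difference between the 2 effects was not tested. Dixon's test for 1 outlying library found none over 40 groups of values in the 4-day libraries, namely the named members and the shares of counts taken by the members and by mitochondrially encoded genes. It does not see a pair of high libraries such as CT074 and CT078 for Ndufa4l2.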

How the results depend on the processing

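No paired analysis was possible because the columns carry library numbers and not the replicate numbers of the labels. The luminal and basal-like domains have adjoining library numbers (CT128 and CT129, CT143 and CT144, CT148 and CT149). No label ties these libraries to 1 lesion, so pairing by number would be an assumption, and it was not tested. When libraries were left out singly, the number of members called ran from 0 to 1 at 4 days (Ndufa4l2, which passed the minimum there through mutants alone), from 0 to 2 in luminal tumors and from 0 to 1 in luminal domains, and stayed at 0 in the other comparisons. The median log2 fold change of members ran from 0.11 (without CT066, and without CT071) to 0.25 at 4 days, from 0.25 to 0.55 (without CT111) in luminal tumors, from -0.16 to 0.14 in luminal domains, from -0.06 to 0.07 in basal-like domains and from 0.49 to 0.71 between luminal tumors and luminal domains. Where a luminal domain left the tumor table, the other was assumed to vary like the other groups. Under the remaining alternatives 0 members were called in each comparison. EBayes without trend called 20 genes in basal-like domains. Array weights brought the 4-day median to 0.09, and quantile normalization brought that of luminal tumors to 0.19 and that between luminal tumors and domains to 0.32. The 8-library table gave -0.16 for luminal domains. The median of all genes moved by 0.13 in luminal tumors under quantile normalization and by -0.15 in luminal domains under upper-quartile scaling. Of 92 values of named members, 31 changed sign under 1 or more alternatives, and none of the 86 reversed values passed the test. Quantile normalization gave Ndufv1 -0.0033 in 4-day cells, Ndufv1 -0.16 and Uqcrc1 -0.038 in luminal tumors, Cox4i1 0.13 and Sdha -0.13 in luminal domains, Atp5c1 0.0399, Cox6b1 0.038, Cox8a 0.0071 and Sdhb 0.078 in basal-like domains. The 6-library table gave Cox4i1 0.046 in 4-day cells. Array weights gave Cox7a1 -0.12, Ndufv1 -0.18 and Uqcrc1 -0.11 in luminal tumors, Cox6b1 -0.038 in luminal domains. Upper-quartile scaling gave Cox7a1 -0.076 and Ndufv1 -0.077 in luminal tumors, Cox6a1 -0.016, Cox6b1 -0.14, Cox8a -0.11, Sdha -0.14 and Uqcrfs1 -0.051 in luminal domains, Atp5c1 0.0045 and Sdhb 0.0299 in basal-like domains. Setting 5 luminal libraries against 3 basal gave Cox7a2 -0.0001 and Ndufv1 -0.055 in luminal tumors. The 8-library table gave Cox6b1 -0.14, Cox8a -0.081 and Uqcrfs1 -0.065 in luminal domains. Leaving out 1 library changed the sign of 29 of the 92 values. In 4-day cells the range without 1 library was Cox4i1 -0.087 to 0.051. In luminal tumors the range without 1 library was Atp5b -0.28 to 0.22, Cox4i1 -0.012 to 0.36, Cox6a2 -3.26 to 0.87, Cox7a1 -1.32 to 0.92, Ndufs1 -0.46 to 0.21, Ndufv1 -0.44 to 0.33, Uqcrc1 -0.47 to 0.49 and Uqcrfs1 -0.10 to 0.51. In luminal domains the range without 1 library was Cox4i1 -0.18 to 0.20, Cox6a1 -0.047 to 0.39, Cox6b1 -0.16 to 0.26, Cox7a1 -0.34 to 0.69, Cox7a2 -0.45 to 0.054, Cox8a -0.12 to 0.25, Ndufv1 -0.29 to 0.16, Sdha -0.37 to 0.38 and Uqcrfs1 -0.0603 to 0.29. In basal-like domains the range without 1 library was Atp5c1 -0.19 to 0.054, Cox4i1 -0.18 to 0.037, Cox4i2 -1.08 to 0.085, Cox6a1 -0.23 to 0.15, Cox6b1 -0.22 to 0.071, Cox7a1 -1.49 to 0.15, Cox7a2 -0.0601 to 0.22, Cox8a -0.19 to 0.044, Ndufv1 -0.065 to 0.32, Sdhb -0.096 to 0.024 and Uqcrc1 -0.082 to 0.20. The causes were not tested. Reads per library are unknown, and 2 or 3 libraries a group limit what the tumor comparisons can show.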
